A study of Mus musculus with 6 samples.

Results

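The comparison set myeloid-primed multipotent progenitors (MPP3) against lymphoid-primed multipotent progenitors (MPP4) in the bone marrow of mice without leukemia. Its members were the 5967 cells of the 3 PBS libraries that the authors' table of single cells puts in clusters 0 to 5 and in the class MPP3 (1118 cells) or MPP4 (4849 cells), out of 12170 cells of the PBS libraries and 16822 cells of the series. All mice were female C57BL/6J (CD45.1) animals of 8 to 12 weeks that had received no conditioning. The PBS mice were injected with PBS and sacrificed at day 21. In the AML group, used here for a single comparison at the end, mice of the same genotype received cells of C1498, a murine acute myeloid leukemia line that carries CD45.2. Bone marrow of hind legs was depleted of lineage-positive cells and sorted for host CD45.1+ Lin- cKit+ Sca1+ cells (LSK), the compartment that holds hematopoietic stem cells and multipotent progenitors, and was profiled by droplet single-cell RNA sequencing. The labels do not say whether a library is 1 animal or a pool, so p-values refer to libraries and not to animals.

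As background, multipotent progenitors have lost long-term self-renewal but can still form many blood lineages. MPP3 are biased to granulocytes and macrophages and begin to make the proteases and peroxidase of neutrophil granules. MPP4 carry the cytokine receptor Flt3, lean to the lymphoid lineages, and include cells that start to express Dntt, the template-independent DNA polymerase that adds nucleotides to antigen receptor genes, and Il7r, the receptor for interleukin 7.

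The classes were not sorted. Each cell carries deposited module scores for HSC, MPP2, MPP3 and MPP4 that were computed from its own transcripts, and the class is that of the highest score in 16822 of 16822 cells. Which genes enter those scores is not known here. An unknown number of the genes below therefore differ because the classes were cut on them. A p-value does not say that the classes exist. It rests mostly on a spread shared by all genes (median prior degrees of freedom 214 against 2 residual ones). So a low p-value does not say that the 3 libraries were alike. The cut runs through a continuous range. In MPP3, 722 cells (64.6%) lay within 0.05 score units of the next class, as did 1834 MPP4 cells (37.8%), and the MPP4 score was within that distance in 409 MPP3 cells (36.6%). The sum of 10 MPP3 markers was higher in MPP3: its median was 14.0, 17.7 and 17.7 UMIs per 10000 in MPP3 cells of PBS 1, PBS 2 and PBS 3, and 7.86, 6.62 and 7.66 in MPP4 cells. The sum of 10 MPP4 markers ran the other way, at 6.90, 7.35 and 8.48 in MPP3 cells and 16.2, 15.4 and 17.1 in MPP4 cells.

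UMI counts were summed per library and class. MPP3 sums held 5961918 UMIs from 725, 25 and 368 cells of PBS 1, PBS 2 and PBS 3, and MPP4 sums held 22275156 UMIs from 2832, 405 and 1612 cells. PBS 2 stood apart: it held 25 MPP3 cells, and its cells were deeper, with a median of 11501 UMIs in MPP3 and 8928 in MPP4, where the other libraries lay between 3629.5 and 4866.5. The median share of mitochondrial UMIs was between 0.915% and 1.24% in all 6 sums. Across the PBS members, 10 cells had a barcode also found in another library. Phase and cluster also moved with the classes in every library. MPP3 cells were more often in S phase by the authors' call (36.7%, 56.0% and 37.0% against 19.6%, 19.5% and 17.7% in MPP4), and more often in cluster 4 (15.3%, 40.0% and 24.5% against 0.600%, 2.22% and 0.372%).

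In all, 11021 genes passed the filter on low counts and were tested with edgeR's quasi-likelihood test with the library as a block. A gene could pass that filter through 1 class alone, as Hp, Igsf6, Cebpe and Fcgr3 below did, and its direction was then set in advance. At a Benjamini-Hochberg adjusted p under 0.05, 1437 genes (13%) were higher in MPP3 and 936 (8.49%) were higher in MPP4, and the median log2 fold change of all genes was 0.0019. The CPM of the classes did not overlap in 9.39% of the genes tested with MPP3 higher and in 10.9% with MPP4 higher, the background for statements on overlap below. Of the genes called higher in MPP3, 1287 were higher in MPP3 in 3 of 3 libraries, and of those called higher in MPP4 870 were higher in MPP4 in 3 of 3. Changes of more than 2-fold were fewer: 146 genes had a log2 fold change of at least 1 and 211 of -1 or less. Both counts depend on how the sums were scaled and paired. With library totals in place of TMM factors, the median of all genes moved to -0.093 and the split turned to 992 higher in MPP3 and 1400 higher in MPP4 (41.5% against 60.6% of calls higher in MPP3). DESeq2 called 655 and 258 genes (71.7% higher in MPP3). Fewer genes were called in parts of the cells, which is the background for the list counts given there: 1.98% were higher in MPP3 and 1.88% higher in MPP4 in cells called G1, 5.73% and 5.52% without cluster 4, and 6.16% and 4.93% with equal numbers of cells of each phase. These shares were 9.0% and 12.7% with library totals, 6.84% and 3.61% without PBS 1, and 10.4% and 7.34% with classes rebuilt from markers on 50% of each cell's UMIs.

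**Figure D1:**
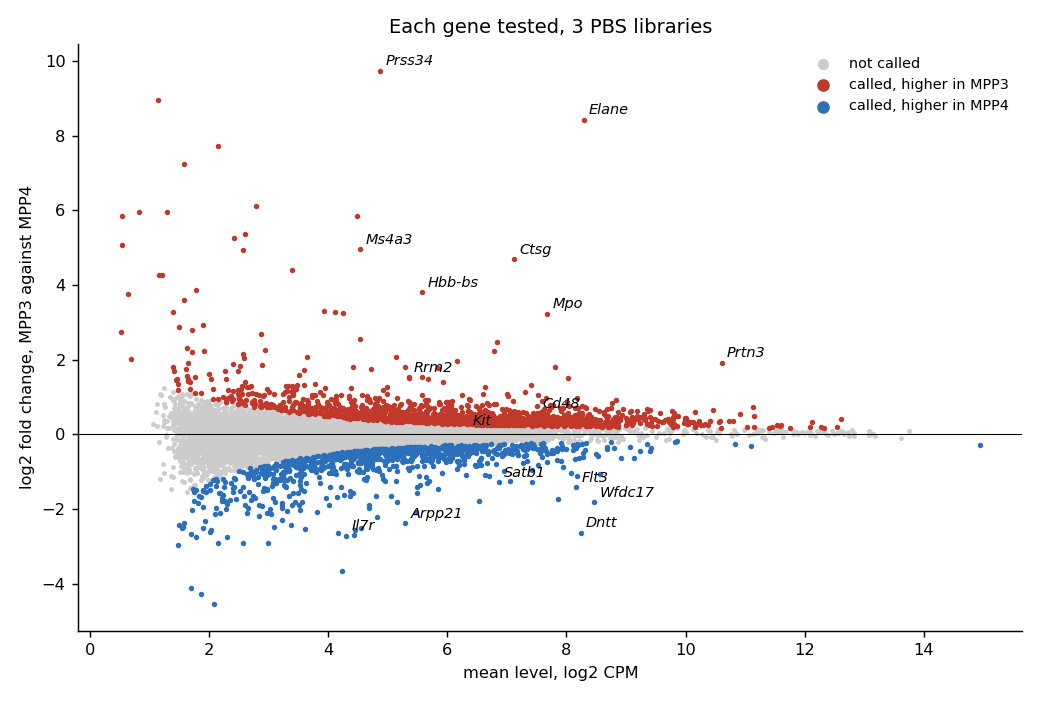
Log2 fold change of MPP3 against MPP4 (y axis) against the mean level in log2 CPM (x axis) for each of the 11021 genes tested in the 3 PBS libraries, one point a gene, with called genes in red (1437, higher in MPP3) and blue (936, higher in MPP4). Elane, Ctsg and Mpo lie far above the other genes of like level, and Dntt, Wfdc17 and Flt3 lie below them.

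Genes listed here under neutrophil primary granules were mostly higher in MPP3. The list also holds genes of other proteins, such as Ms4a3 and Igsf6. Of 18 listed genes 16 were tested, 13 were higher in MPP3 and 1, Mgst2, a glutathione transferase family member, was higher in MPP4; the median log2 fold change was 0.85. Elane, the neutrophil elastase gene, was at 322, 899 and 1332 CPM in MPP3 and at 1.80, 1.02 and 2.99 CPM in MPP4 of PBS 1, PBS 2 and PBS 3. Each library's classes lay far apart. Its log2 fold change was 8.43 ± 0.14 (edgeR adjusted p = 1.60e-134), and it was 7.41, 9.65 and 8.75 within PBS 1, PBS 2 and PBS 3. Here and below ± is the SE of the fit to 3 libraries. That fit shares spread between genes, so the SE can be much smaller than the spread between libraries. Mpo, myeloperoxidase, was at 311, 870 and 536 CPM in MPP3 and 46.5, 58.4 and 53.7 CPM in MPP4 (3.23 ± 0.094). Every MPP3 value of Mpo lay above every MPP4 value, and the MPP4 values were close to each other. Ctsg, the serine protease cathepsin G, was at 245, 785 and 439 CPM against 14.3, 7.40 and 20.6 CPM (4.70 ± 0.12). Prtn3, proteinase 3, was abundant on both sides, at 1768, 3131 and 3115 CPM in MPP3 and 694, 530 and 813 CPM in MPP4 (1.92 ± 0.076). With spread estimated robustly against outlying genes, the Prtn3 call was lost (edgeR adjusted p = 0.081), while Elane, Mpo (0.022) and Ctsg (0.044) were still called there. Ms4a3, a membrane protein of granulocyte-monocyte progenitors, was at 51.4, 150 and 122 CPM against 3.21, 0.765 and 2.84 CPM (4.96 ± 0.18).

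Other members ranged from small to near-exclusive differences. Lyz2, lysozyme, differed by a log2 fold change of 0.35 ± 0.10 (98.8, 140 and 73.9 CPM against 70.2, 122 and 63.8), and its groups overlapped. The haptoglobin gene Hp (80, 19 and 65 UMIs in MPP3 against 4, 1 and 5 in MPP4) and the immunoglobulin superfamily gene Igsf6 (31, 4 and 20 UMIs against 2, 0 and 1) were near absent from MPP4.

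**Figure D2:**
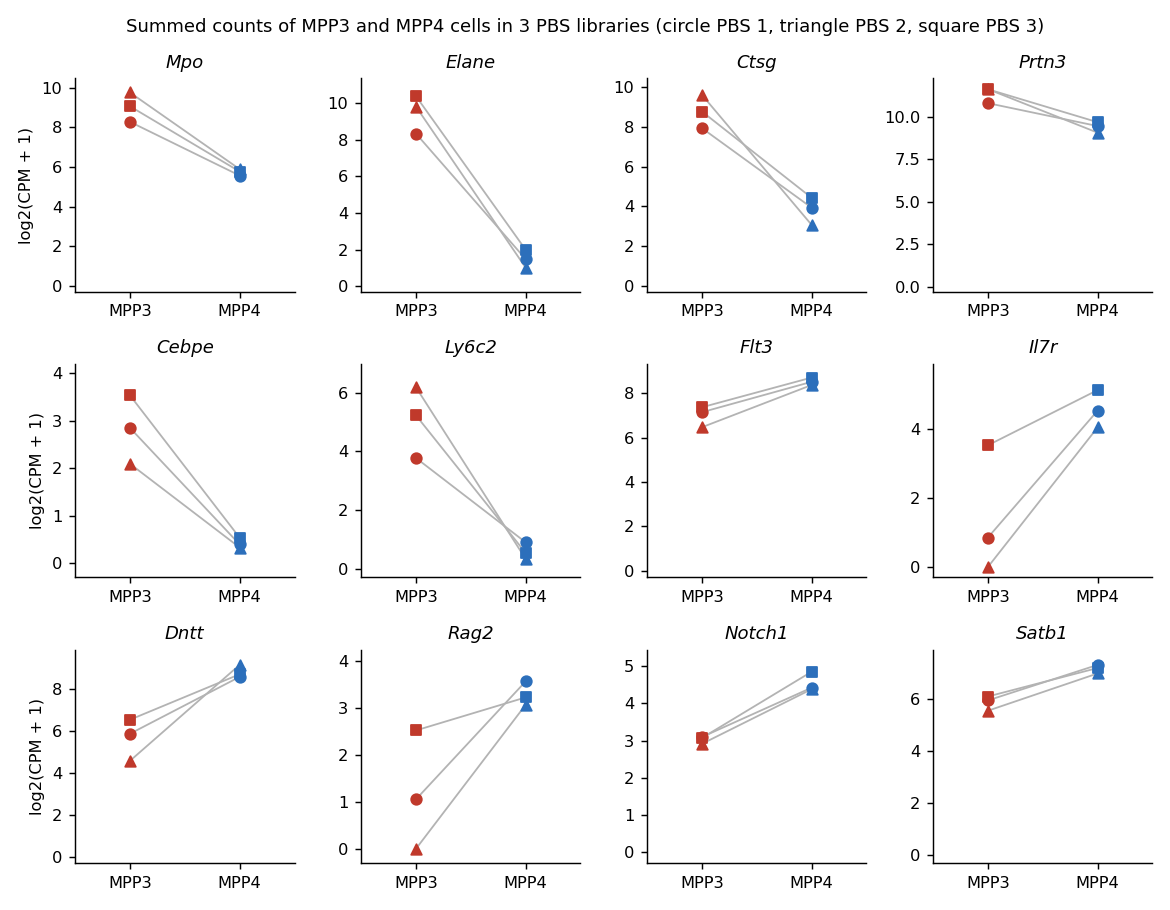
Level of 12 genes as log2(CPM + 1) in the summed MPP3 cells (red) and MPP4 cells (blue) of each PBS library, with a line joining the sums of a library. Mpo, Elane, Ctsg, Prtn3, Cebpe and Ly6c2 fall from MPP3 to MPP4 in each library, and Flt3, Il7r, Dntt, Rag2, Notch1 and Satb1 rise.

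The promoters of 3 granule genes and of Dntt are shown because these genes were among the 10 largest rises and the 10 largest falls (mean of at least 5 log2 CPM). Each window runs from 250 bases before to 50 bases after the start site (RefSeq, GRCm38.p6, gene strand): Elane at chr10:79886062-79886361 (+ strand), Ctsg at chr14:56102525-56102824 (- strand), Mpo at chr11:87793534-87793833 (+ strand) and Dntt at chr19:41029025-41029324 (+ strand). Capitals mark matches on either strand to letters of PU.1 (GAGGAAGT), MYB (AACTG), RUNX (TGTGGT), the E-box written CAGGTG, and GATA factors (AGATAA). The E-box written CAGCTG (in 16.3% of all windows), the IKAROS letters TGGGAA (25.6%) and the C/EBP letters TTGCNNCAA (2.08%) and TTNNGCAA (10.8%) were searched too and matched in none of the 4 windows.
Elane: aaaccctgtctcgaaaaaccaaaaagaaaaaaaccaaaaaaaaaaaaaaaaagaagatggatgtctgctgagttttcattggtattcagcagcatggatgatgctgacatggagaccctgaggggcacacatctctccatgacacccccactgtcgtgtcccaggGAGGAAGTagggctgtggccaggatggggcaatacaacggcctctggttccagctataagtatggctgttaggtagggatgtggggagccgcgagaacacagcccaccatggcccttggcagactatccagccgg
Ctsg: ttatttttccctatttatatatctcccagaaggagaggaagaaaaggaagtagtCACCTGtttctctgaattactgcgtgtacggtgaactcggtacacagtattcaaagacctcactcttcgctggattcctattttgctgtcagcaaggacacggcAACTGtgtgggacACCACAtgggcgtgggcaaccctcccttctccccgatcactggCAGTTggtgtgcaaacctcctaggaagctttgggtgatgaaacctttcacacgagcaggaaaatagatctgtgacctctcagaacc
Mpo: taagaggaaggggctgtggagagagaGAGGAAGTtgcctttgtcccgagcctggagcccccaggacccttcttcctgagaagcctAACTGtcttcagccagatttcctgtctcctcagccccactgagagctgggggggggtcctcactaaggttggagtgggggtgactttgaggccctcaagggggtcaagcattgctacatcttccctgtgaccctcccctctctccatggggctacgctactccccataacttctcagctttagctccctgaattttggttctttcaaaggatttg
Dntt: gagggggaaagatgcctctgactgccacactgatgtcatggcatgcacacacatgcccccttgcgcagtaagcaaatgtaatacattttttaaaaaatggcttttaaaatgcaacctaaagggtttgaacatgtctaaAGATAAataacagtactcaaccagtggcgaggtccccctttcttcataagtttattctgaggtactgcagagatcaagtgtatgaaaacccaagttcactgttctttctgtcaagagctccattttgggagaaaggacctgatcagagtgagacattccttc
The PU.1 letters were in the Elane window 85 bases before the start and in the Mpo window 224 bases before it, and 3.20% of 32851 promoter windows of this length hold them. Ctsg held MYB letters at -92 and -36, an E-box at -196 and RUNX letters at -79, which 44.8%, 20.2% and 16.8% of windows hold; Mpo held MYB letters at -165. Dntt held GATA letters at -112, as do 11.2% of windows. These matches share bases with no other motif searched, and they are letters in a window and not measured binding. The start site of Prtn3 lies 6645 bases from that of Elane on the same strand of chromosome 10.

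Elane and Ms4a3 sat in few cells, while Prtn3, Mpo and Ctsg had UMIs in 1017, 571 and 407 of the 1118 MPP3 cells. Elane had UMIs in 148 and Ms4a3 in 129. For Elane, cluster 4 held 99.0% of the 3995 UMIs in MPP3, and 20 cells held 67.8%, against 20.3% to 27.7% for Prtn3, Ctsg and Mpo. Cluster 4 made up 18.9% of MPP3 cells and 28.6% of their UMIs. It also held 88.3% of Ms4a3, 71.9% of Ctsg, 65.3% of Mpo and 59.4% of Prtn3 UMIs in MPP3. After thinning each cell to 2000 UMIs, Mpo was detected in 32.3% of MPP3 cells (95% exact Clopper-Pearson interval 29.5 to 35.2%, counting error only; 51.1% unthinned), in 8.22% of MPP4 cells (7.45 to 9.03%; 17.5% unthinned) and in 3.04% of cells of the HSC class, which should hold little of it. Ctsg was detected in 22.8%, 2.46% and 0.840% of the cells of these classes (36.4%, 4.89% and 1.40% unthinned). Elane was detected in 8.74% of MPP3 cells, and its 0.378% in MPP4 was below the 0.640% in the HSC class and is read as background (13.2%, 0.784% and 0.933% unthinned). Cluster 8, which is no part of the comparison and whose T and NK cell markers summed to 940 CPM against 11.1 and 13.5 CPM in MPP3 and MPP4, was a further reference of 50 thinned cells (median depth 4090 UMIs). There Mpo was detected in 2.00% (0.0506 to 10.6%), Ctsg in 8.00% (2.22 to 19.2%) and Elane in none (exact upper bound 7.11%). The MPP4 shares of all 3 genes lay within these intervals, but at 50 cells the intervals are too wide to tell background apart. In the HSC class the intervals were 2.40 to 3.79% for Mpo and 0.520 to 1.28% for Ctsg, and the MPP4 shares of both lay above them. The median depth of MPP3, MPP4 and HSC cells was 4408, 3863 and 3334 UMIs, and thinning left out 19, 91 and 72 cells.

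Outside cluster 4 part of the pattern was still there. In clusters 0 to 2, Mpo was at 188, 272 and 212 CPM in MPP3 and 50.2, 59.7 and 52.6 CPM in MPP4, and Ctsg at 101, 230 and 156 CPM against 15, 7.36 and 19.2 CPM. Elane was at 6.06, 0 and 15.7 CPM against 1.93, 1.09 and 2.16 CPM, which is a small part of the 1553, 1576 and 3251 CPM of MPP3 cells in cluster 4. Leaving cluster 4 out, the log2 fold change was 1.99 for Mpo, 3.13 for Ctsg and 0.78 for Prtn3, each still called, and Elane no longer passed the filter. Without cluster 4, 6 genes of the primary granule list were higher in MPP3 and 2 higher in MPP4 of 13 tested.

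**Figure D3:**
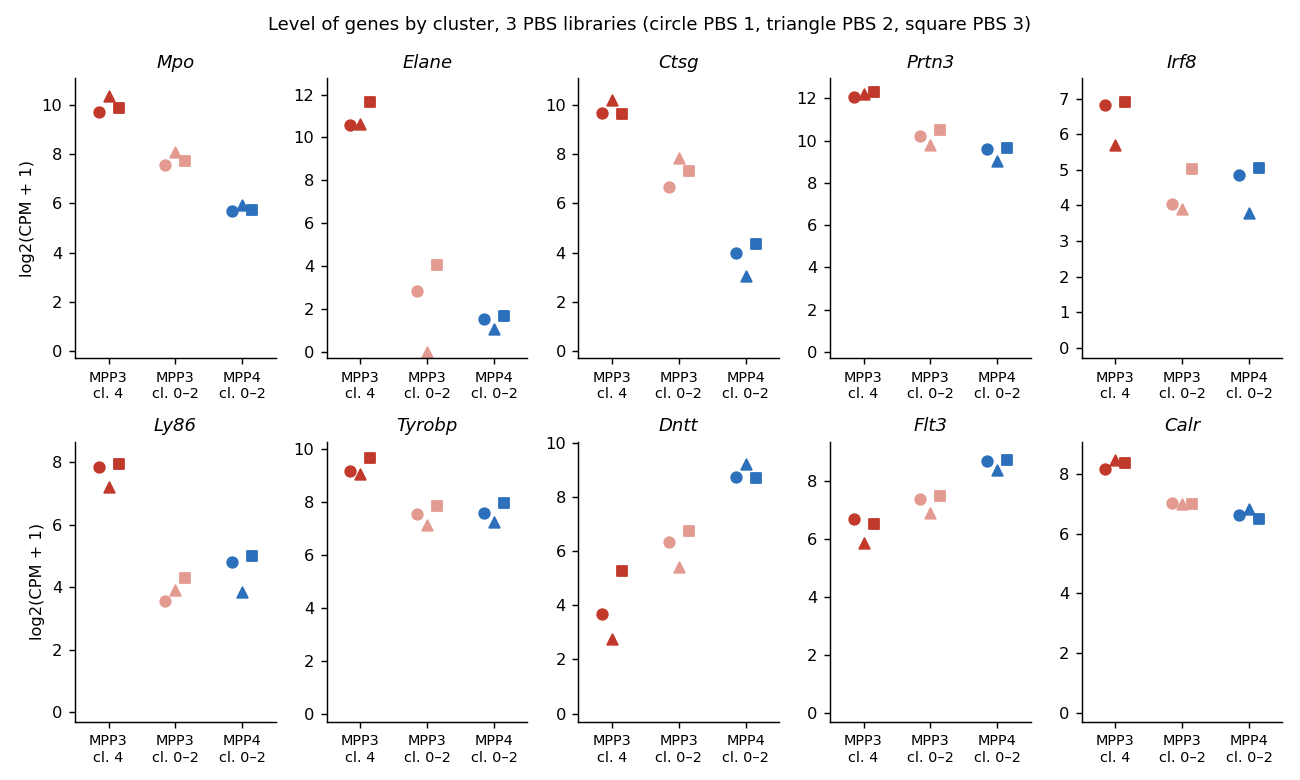
Level of 10 genes as log2(CPM + 1), from plain library totals, in MPP3 cells of cluster 4 (dark red), MPP3 cells of clusters 0 to 2 (light red) and MPP4 cells of clusters 0 to 2 (blue), one point a PBS library. Mpo and Ctsg step down over the 3 sets, and Dntt and Flt3 step up. Irf8, Ly86 and Tyrobp have their highest values in cluster 4, though Tyrobp is abundant in clusters 0 to 2 as well.

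Among myeloid transcription factors, 8 of 16 tested were higher in MPP3 and 1 was higher in MPP4 (median log2 fold change 0.29). Without cluster 4 these counts were 2 and 1 of 14 (median 0.036), and with the rebuilt classes they were 2 and 4 of 15 (0.096), the former close to the share of all genes. Cebpe, a C/EBP factor of late granulocyte development, was at 6.19, 3.26 and 10.6 CPM in MPP3 and 0.313, 0.255 and 0.448 CPM in MPP4 (4.27 ± 0.53). It had 44 UMIs in 30 MPP3 cells, 93.2% of them in cluster 4. Id2, an inhibitor of E proteins, was at 10.8, 6.52 and 14.8 CPM against 3.05, 1.28 and 3.89 CPM (1.88 ± 0.30), and Cebpd at 29.6, 26.1 and 31.2 CPM against 16.0, 14.3 and 11.5 CPM (1.06 ± 0.17). The classes were apart for both genes in each library, but Id2 turned to -1.16 with the rebuilt classes. Cebpa, which drives granulocyte-monocyte commitment, differed less (0.80 ± 0.21), and Spi1, which encodes PU.1, was at 162, 280 and 186 CPM against 149, 206 and 145 CPM (0.27 ± 0.090; edgeR adjusted p = 0.017). Spi1 lost its call without PBS 2 (0.20) and without PBS 3 (0.24). Nfil3, a bZIP factor of innate lymphoid and natural killer development, was higher in MPP4 (-1.04 ± 0.32), although in PBS 2 the classes were level, at 9.78 and 9.44 CPM. Irf8, the monocyte and dendritic cell factor, was at 33.7, 35.8 and 72.9 CPM against 26.6, 12.2 and 32.3 CPM (0.78 ± 0.13), and its direction turned without cluster 4 (-0.45, not called). Cebpd did not differ without cluster 4 (-0.020).

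Genes of monocyte and dendritic priming were mostly higher in MPP3, and that rested on cluster 4. Of 21 listed, 14 were tested, 11 were higher in MPP3 and Ctss, cathepsin S, was higher in MPP4 (median 1.65). Ly6c2, F13a1, Lgals3 and Ccr2 passed the filter through MPP3 alone, so the count and the median are partly set by the filter. Ly6c2, a monocyte surface protein, was at 12.7, 71.7 and 36.4 CPM against 0.860, 0.255 and 0.448 CPM (5.37 ± 0.33), F13a1, coagulation factor XIII, at 19.1, 13 and 31.7 CPM against 0.938, 0.255 and 0.448 CPM (4.94 ± 0.32), and the chemokine receptor Ccr2 at 8.89, 6.52 and 14.8 CPM against 1.49, 1.02 and 1.20 CPM (2.94 ± 0.36). Lgals3, galectin 3, differed by 3.28 ± 0.45. Cluster 4 held 97.1% of the Ly6c2, 90.4% of the F13a1 and 92.1% of the Ccr2 UMIs of MPP3. Without it, 10 members were tested, 1 was higher in MPP3 and 5 were higher in MPP4, and with the rebuilt classes 3 and 4 of 11 were (median -0.054). Cd74, the invariant chain of class II antigen presentation, was at 464, 13 and 499 CPM against 97.6, 112 and 112 CPM (1.82 ± 0.12), and PBS 2 went against the others. Of its MPP3 UMIs 93.8% came from 20 cells, and without cluster 4 it was higher in MPP4 (-1.01, called). Ly86 behaved alike (1.53 with cluster 4, -0.93 without). Of 14 monocyte and macrophage markers, several of them also on this list, 8 were tested and 4 were higher in MPP3, among them Cd68 (1.14). Their summed level was 55.9, 141 and 100.3 CPM in MPP3 against 23.2 to 30.2 CPM in MPP4. The defining macrophage marker Adgre1 had 1 UMI in MPP3, and the part of such cells in the result was not tested.

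Of 17 myeloid cytokine and Fc receptors, 13 were tested, 5 were higher in MPP3 and 3 were higher in MPP4 (median 0.51). Without cluster 4 the lean to MPP3 was gone, with 1 and 3 of 12 (median 0.0030). The low-affinity IgG receptor genes Fcgr3 (5.66, 22.8 and 13.7 CPM against 0.704, 0.765 and 1.05 CPM; 3.59 ± 0.42) and Fcgr2b (10.2, 13 and 12.7 CPM against 3.52, 4.34 and 3.14 CPM; 1.70 ± 0.29) were higher in MPP3 without overlap. Cd33, a sialic acid-binding receptor, was higher in MPP4, at 11.9, 9.95 and 14.1 CPM against 3.77, 3.26 and 2.64 CPM in MPP3 (-1.88 ± 0.31), and so was Il1r1, the interleukin 1 receptor, at 54.8, 48.7 and 61.9 CPM against 22.1, 9.78 and 24.8 CPM (-1.36 ± 0.14). The growth factor receptors Csf1r (0.51 ± 0.40) and Csf3r (0.14 ± 0.13) did not pass the test. Tyrobp, the adaptor of many myeloid receptors, was at 253, 368 and 493 CPM against 172, 149 and 256 CPM (0.86 ± 0.086), and was level without cluster 4 (-0.077, not called).

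A few cells carried transcripts of mast cells and basophils, granulocytes of another branch than neutrophils. Of 10 listed markers, 6 were tested and 6 were higher in MPP3. Prss34, Ms4a2, Fcer1a and Mcpt8 passed the filter through MPP3 alone, so their direction was set in advance. The summed level of the list was 116, 1099 and 458 CPM in MPP3 of PBS 1, PBS 2 and PBS 3 against 9.06 to 12.4 CPM in MPP4. Prss34, a basophil protease, had 64, 112 and 414 UMIs in MPP3 and 1, 0 and 2 in MPP4. Ms4a2 and Fcer1a, both subunits of the high-affinity IgE receptor, had 109 and 51 UMIs in MPP3 and 2 and 0 in MPP4, and Mcpt8, the basophil granule protease, had 459 against 34. The 590 Prss34 UMIs of MPP3 came from 12 cells. Cells with at least 3 UMIs over the list numbered 24 of 725, 8 of 25 and 16 of 368 in MPP3, so they made up 32.0% of the MPP3 cells of PBS 2 and 3.31% and 4.35% of the others. In MPP4 they numbered 2, 2 and 0. Leaving them out, 1222 genes were higher in MPP3 and 772 higher in MPP4, and 1949 of these calls were also made with them in; this alternative was chosen after seeing the data. Markers of mature neutrophils were in PBS 1 above all. Their summed level was 136, 6.28 and 21.8 CPM in MPP3 against 0.761 to 3.48 CPM in MPP4, and S100a9 had 166, 1 and 4 UMIs in MPP3 and Retnlg 60, 0 and 0. Of 13 listed markers S100a8 alone passed the filter, 95.2% of its 125 UMIs in MPP3 came from 5 cells, and Cd177, Fcnb and Ly6g had no UMI in any of the 6 sums. No eosinophil marker passed the filter, and their summed level was 65.9 CPM in MPP3 of PBS 1 and between 2.79 and 6.96 CPM in the other sums. The part of cells with neutrophil or eosinophil transcripts in the results was not tested.

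Lymphoid receptors and surface proteins were higher in MPP4 in 11 of 18 tested genes and higher in MPP3 in 2 (median -0.49). Cxcr4, a chemokine receptor higher in MPP3 (0.32), turned without cluster 4 (-0.24). Flt3 was at 141, 88.0 and 165 CPM in MPP3 and at 368, 333 and 420 CPM in MPP4 (-1.42 ± 0.091; edgeR adjusted p = 1.22e-34), with the lowest MPP4 library above the highest MPP3 library. Il7r was sparse. It had 3, 0 and 20 UMIs in MPP3 and 284, 61 and 228 in MPP4 (0.808, 0 and 10.6 CPM against 22.2, 15.6 and 34.1 CPM; -2.71 ± 0.26), and PBS 3 held most of the MPP3 UMIs. Notch1, the receptor that directs T lineage commitment, was at 7.54, 6.52 and 7.39 CPM against 20.5, 19.9 and 28.0 CPM (-1.62 ± 0.22). Il18r1, the interleukin 18 receptor, was at 1.89, 0 and 1.06 CPM against 5.08, 3.32 and 5.83 CPM (-1.78 ± 0.47). The homing receptor Ccr7 was lower still in level and overlapped between the classes (0.539, 3.26 and 0 CPM against 2.81, 5.87 and 2.09 CPM; -2.36 ± 0.73). Cd52, fixed here as an MPP4 marker, did not pass the test (-0.054 ± 0.080).

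After thinning, Flt3 was detected in 25.0% of MPP3 cells (22.5 to 27.7%), 55.0% of MPP4 cells (53.5 to 56.4%) and 15.4% of the HSC class (45.5%, 77.0% and 25.0% unthinned), and in 12.0% of the 50 cells of cluster 8 (4.53 to 24.3%). Detection of Il7r was 0.637% (0.256 to 1.31%) and 3.95% (3.42 to 4.54%) in MPP3 and MPP4 (1.07% and 7.82% unthinned), and it was in 0 of 2501 cells of the HSC class (exact upper bound 0.147%). Mpo and Flt3 were found together in 82 of 1099 thinned MPP3 cells (7.46%) and 214 of 4758 MPP4 cells (4.50%). Mpo alone or with Flt3 was in 355 of these MPP3 cells and 391 of these MPP4 cells. Flt3 alone or with Mpo was in 275 and 2615. Whether the joint counts differ from those of independent detection was not tested, and doublets were not called. The joint counts are therefore not read as cells primed to both lineages.

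The lymphoid transcription factors had no member higher in MPP3. Of 22 listed, 17 were tested and 11 were higher in MPP4 (median -0.55). Satb1, a chromatin organizer of early lymphoid cells, was at 60.3, 45.6 and 67.1 CPM in MPP3 and 157, 125 and 144 CPM in MPP4 (-1.28 ± 0.11). Tox, a high mobility group factor of T cells, was at 24.2, 13 and 27.5 CPM against 50.3, 57.1 and 56.2 CPM (-1.11 ± 0.14), and Tcf4, an E protein, at 59.8, 78.2 and 95.6 CPM against 127, 141 and 180 CPM (-0.99 ± 0.10). None of these 3 overlapped between the classes. Ets1 differed by -1.05 ± 0.26 but was level in PBS 2, at 13 CPM on both sides. Abundant factors moved less: Mef2c differed by -0.64 ± 0.078 (438, 407 and 438 CPM against 711, 550 and 697 CPM) and Ikzf1, which encodes Ikaros, by -0.55 ± 0.095. Ebf1, the B lineage factor, was at 2.42, 0 and 11.6 CPM against 8.83, 14.8 and 12.3 CPM (-0.98 ± 0.29), and 87.1% of its 31 UMIs in MPP3 came from 5 cells. Without cluster 4, 10 of 17 were higher in MPP4 and 1 was higher in MPP3 (median -0.48).

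Genes of receptor recombination and early B and T cells had 5 of 9 tested members higher in MPP4 and none higher in MPP3 (median -1.28). Dntt was at 57.4, 22.8 and 91.9 CPM in MPP3 and 383, 571 and 418 CPM in MPP4 (-2.64 ± 0.11; edgeR adjusted p = 2.78e-62), a gap over 4-fold in each library. It was detected after thinning in 8.92% of MPP3 cells, 37.7% of MPP4 cells and 2.16% of the HSC class (14.2%, 50.1% and 3.96% unthinned). It was in 9 (18%) of the 50 cells of cluster 8 (8.58 to 31.4%), an interval that holds the MPP3 share. Rag2, of the recombinase, was at 1.08, 0 and 4.75 CPM against 10.9, 7.40 and 8.37 CPM (-2.13 ± 0.37), and its 224 UMIs in MPP4 came from 198 cells. The B cell adaptor Blnk (2.15, 0 and 6.86 CPM against 10.5, 12.0 and 16.1 CPM; -1.80 ± 0.30) and the T cell kinase Lck (6.73, 3.26 and 11.1 CPM against 21.7, 24.7 and 19.3 CPM; -1.40 ± 0.22) were higher in MPP4 in 3 of 3 libraries, so early genes of both lymphoid branches were on that side. Ighm, the immunoglobulin heavy chain, was at 81.9, 74.9 and 96.1 CPM against 191, 245 and 226 CPM (-1.28 ± 0.099). Of 12 markers of B and plasma cells, Mzb1 (-1.99 ± 0.48) and Jchain (-0.48 ± 0.18) of 5 tested were higher in MPP4, and of 13 T and NK markers Klrd1 (-1.42 ± 0.43) of 2 tested was. Fcrla (0.32), Cd79b (-0.077), Igkc (-0.059) and Trbc2 (-0.60) did not pass the test. The defining markers Cd3e and Cd3g had no UMI on either side. The summed level of B and plasma cell markers was 94.2 to 206 CPM in MPP3 and 126 to 248 CPM in MPP4, and that of T and NK cell markers 6.88 to 28.3 CPM and 11.8 to 15.8 CPM. The part of such cells in the result was not tested.

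The other large falls from MPP4 to MPP3 were in genes of varied roles. Wfdc17 and Wfdc18, small secreted proteins with a whey acidic domain, were at 81.6, 91.2 and 223 CPM against 315, 533 and 643 CPM (-1.82 ± 0.092) and 7.27, 3.26 and 23.2 CPM against 36.3, 64.0 and 78.5 CPM (-2.09 ± 0.17). Il12a, a subunit shared by interleukins 12 and 35, was at 81.9, 35.8 and 131 CPM against 274, 311 and 365 CPM (-1.73 ± 0.10), and Ccl3, a chemokine, at 35.6, 78.2 and 28.0 CPM against 137, 101 and 113 CPM (-1.79 ± 0.13). Both did not overlap, although the Ccl3 gap was small in PBS 2. Arpp21 (-2.38 ± 0.18), Tbxa2r, the thromboxane receptor (-1.82 ± 0.17), Arhgef3 (-1.66 ± 0.17), Cox6a2 (-1.58 ± 0.16) and the GTPase gene Gem (-1.45 ± 0.14) completed, with Dntt, the 10 largest falls among genes of a mean of at least 5 log2 CPM. Among the largest rises outside the granule genes were Ap3s1, an adaptor subunit of vesicle transport (198, 316 and 306 CPM against 48.2, 35.5 and 47.4 CPM; 2.47 ± 0.099), Lgals1, galectin 1 (144, 459 and 283 CPM against 43.8, 58.4 and 55.3 CPM; 2.23 ± 0.099) and Apoe, apolipoprotein E (117, 150 and 96.6 CPM against 36.2, 38.3 and 27.7 CPM; 1.77 ± 0.11). Slpi, a protease inhibitor (2.08 ± 0.13), Ms4a6c (1.98 ± 0.11) and the RNA gene 4930519L02Rik (1.81 ± 0.12) were the rest. Slpi was level without cluster 4 (-0.010, not called), and Ap3s1 and Apoe stayed called in each of the 21 alternatives run.

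Of 8 genes of the sort and the SLAM gates 7 were tested, 1 was higher in MPP3 and 4, Flt3 among them, were higher in MPP4 (median -0.22). Cd48, a SLAM family protein that MPP2, MPP3 and MPP4 carry and stem cells lack, was at 235, 205 and 242 CPM in MPP3 and 172, 123 and 156 CPM in MPP4 (0.57 ± 0.089). Kit did not pass the test (88.9, 65.2 and 84.5 CPM against 77.6, 82.4 and 77.3 CPM; 0.12 ± 0.10), and Ly6a, which encodes Sca1, was lower in MPP3, at 82.1, 78.2 and 92.4 CPM against 104, 222 and 122 CPM (-0.52 ± 0.10). Cd34 was slightly lower in MPP3 (325, 310 and 230 CPM against 369, 411 and 257 CPM; -0.22 ± 0.083; edgeR adjusted p = 0.041), and Ptprc, CD45, by -0.37 ± 0.10, although it was level in PBS 2, at 81.5 and 79.6 CPM. Slamf1, which encodes Cd150, was under the filter. Of 17 stem cell genes tested, 6 were higher in MPP4, among them Hoxa9 (78.9, 88.0 and 51.2 CPM against 173, 178 and 148 CPM; -1.25 ± 0.11), Mycn (-0.70 ± 0.21) and Txnip (-0.53 ± 0.10), and Gata2 (20.7, 68.4 and 21.1 CPM against 9.69, 11.2 and 9.87 CPM; 1.35 ± 0.19) was 1 of 2 higher in MPP3. Without cluster 4 the stem cell counts turned to 3 higher in MPP3 and 2 higher in MPP4 of 17, and with the rebuilt classes to 6 and 2 of 16.

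Megakaryocyte and erythroid genes gave 5 calls higher in MPP3 and 2 higher in MPP4 of 14 tested, and only part of these held in each library. Itga2b, the platelet integrin CD41, was at 9.43, 13 and 16.9 CPM against 2.19, 3.57 and 5.53 CPM (1.84 ± 0.29). Pf4, platelet factor 4, was higher in 2 of 3 libraries (19.7, 3.26 and 25.9 CPM against 11.6, 13.5 and 13.6 CPM; 0.71 ± 0.19). The beta globin gene Hbb-bs was at 249 CPM in MPP3 of PBS 1 and at 0 and 4.75 CPM in PBS 2 and PBS 3, against 12.1, 2.55 and 5.08 CPM in MPP4. Its fitted log2 fold change of 3.81 rests on PBS 1, since without that library it was -0.30 and not called, and 5 cells held 94.3% of its 934 UMIs. Hba-a1 was alike, with 94.7% of 300 UMIs in 5 cells. Without PBS 1, 1 gene was higher in MPP3 and 2 were higher in MPP4 of 12 (median -0.30), the former close to the share of all genes.

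**Figure D4:**
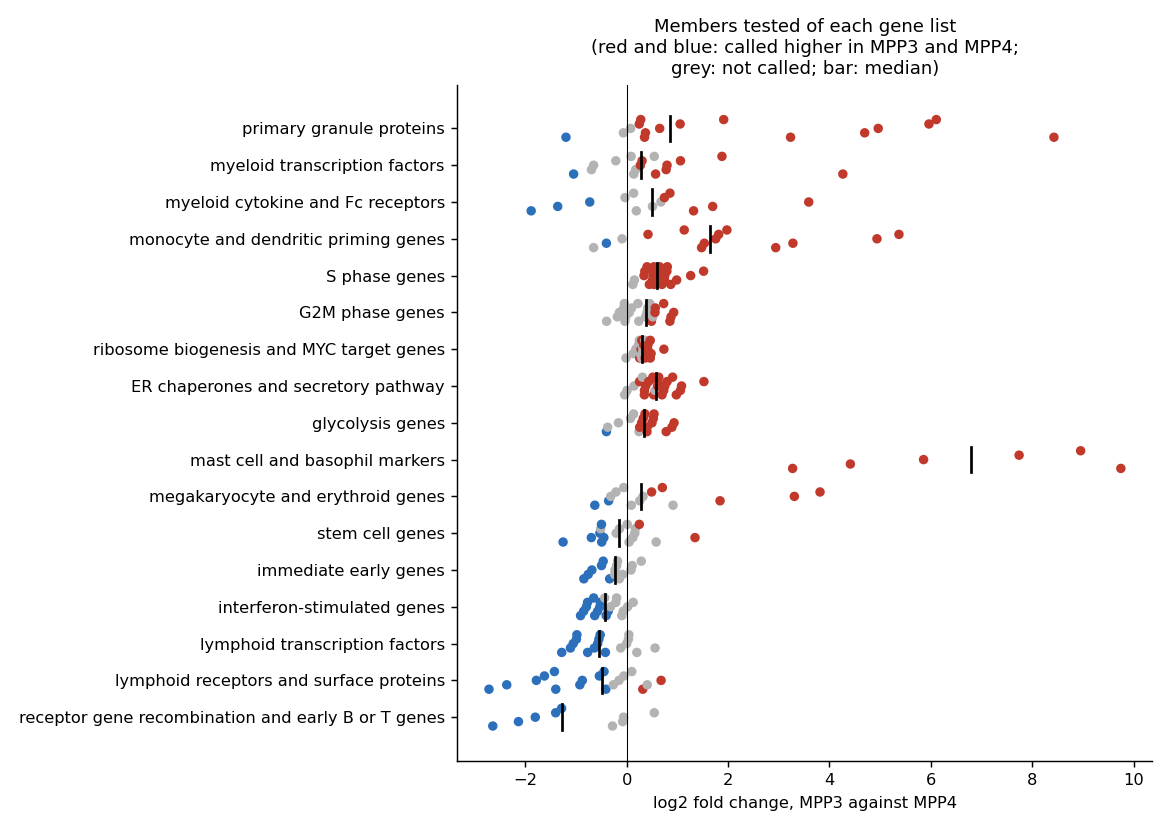
Log2 fold change of MPP3 against MPP4 for the tested members of 17 gene lists, one point a gene (red and blue, called higher in MPP3 and MPP4; grey, not called), with a black bar at the median. The medians of primary granule, monocyte and secretory genes lie to the right of 0, and those of lymphoid, interferon and immediate early genes to the left, with single members called on the other side in some lists.

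Genes of DNA synthesis were higher in MPP3. Of 24 S phase genes, 22 were called higher and none lower (median 0.59). Rrm2, a ribonucleotide reductase subunit, was at 80.5, 97.8 and 61.2 CPM against 33.5, 30.6 and 15.5 CPM (1.52 ± 0.12), and Tyms, thymidylate synthase, at 151, 186 and 170 CPM against 74.9, 75.5 and 56.5 CPM (1.26 ± 0.097). Clspn (0.99 ± 0.14) and Cdc6 (0.87 ± 0.18), which act at replication forks and origins, were higher as well. Of 23 G2M genes 7 were higher in MPP3 (median 0.37), with Aurkb (0.93 ± 0.17), Birc5 (0.88 ± 0.11), Cdk1 (0.85 ± 0.11) and Tacc3 (0.73 ± 0.17) in front, and of 17 G1 cyclins, kinases and inhibitors 5 were and 1 was higher in MPP4, the former led by Ccne1 (1.48 ± 0.32, but -0.042 with the rebuilt classes), Ccne2 (1.24 ± 0.18) and E2f1 (0.61 ± 0.16). Among cells called G1, 0 of 20 S phase genes and 1 of 11 G2M genes were called; the phase calls were made from such genes. With equal numbers of cells of each phase from both classes, 2 of 24 S phase genes were higher in MPP3, and 4 of 23 G2M genes were higher in MPP4.

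Biosynthetic genes followed the same side. Of 24 genes of endoplasmic reticulum chaperones and the secretory pathway, 19 were higher in MPP3 and none in MPP4 (median 0.59). Sdf2l1, a stress-induced protein of the reticulum, was at 87.8, 163 and 68.6 CPM against 36.2, 36.5 and 22.3 CPM (1.53 ± 0.12), and the chaperones Calr (155, 261 and 227 CPM against 87.6, 110 and 91.3 CPM; 1.08 ± 0.093) and Hsp90b1 (457, 332 and 412 CPM against 273, 150 and 182 CPM; 0.98 ± 0.084) and the disulfide isomerase Pdia4 (1.06 ± 0.15) were next. In G1 cells 10 of 24 were higher in MPP3 (median 0.26), and without cluster 4 11 of 24 were (0.24). Pdia4 turned to -0.076 with the rebuilt classes. Ribosome biogenesis and MYC target genes had 12 of 23 higher in MPP3 (median 0.30), with Srm, spermidine synthase, at 301, 306 and 265 CPM against 192, 165 and 156 CPM (0.74 ± 0.086) and Npm3 (0.48 ± 0.091), Gar1 (0.47 ± 0.095) and Ncl (0.47 ± 0.077) behind it; in G1 cells 2 of 23 were. Of 18 glycolysis genes 12 were higher in MPP3 (median 0.35), among them Hk3 (0.94 ± 0.18), Pgam1 (261, 404 and 218 CPM against 156, 196 and 109 CPM; 0.89 ± 0.087), Pfkp (0.78 ± 0.25) and Ldha (0.54 ± 0.081). Ldhb alone was higher in MPP4 (-0.40 ± 0.098). In G1 cells 2 of 18 and without cluster 4 4 of 18 were higher in MPP3.

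Interferon-stimulated genes were lower in MPP3. Of 19 tested, 11 were higher in MPP4 and none in MPP3 (median -0.43). Ifit1 was at 7.27, 6.52 and 5.81 CPM in MPP3 and 13.2, 15.6 and 11.1 CPM in MPP4 (-0.91 ± 0.25), Irf7, the factor that amplifies interferon responses, at 63.3, 35.8 and 37.5 CPM against 105, 95.4 and 64.0 CPM (-0.79 ± 0.11), and Rtp4 at 74.6, 52.1 and 57.6 CPM against 115, 144 and 101 CPM (-0.77 ± 0.11). Ifi27l2a overlapped between the classes but was lower in MPP3 in each library (-0.85 ± 0.11). In G1 cells 3 of 19 were higher in MPP4. Immediate early genes had 6 of 15 higher in MPP4 and none in MPP3 (median -0.23), with Nr4a1 (-0.84 ± 0.17), Ier5 (-0.76 ± 0.18), Dusp2 (-0.68 ± 0.11) and Zfp36 (-0.49 ± 0.11) in front; with library totals in place of TMM 10 of 15 were, where 12.7% of all genes were. Adhesion and homing receptors were mixed, with 5 higher in MPP3 and 3 higher in MPP4 of 17 tested, and 2 and 4 with library totals in place of TMM, where 9.0% and 12.7% of all genes were. Cd63, a tetraspanin of granule membranes, was at 275, 326 and 302 CPM against 148, 159 and 147 CPM (0.97 ± 0.086), while Cd82, a related tetraspanin (-0.99 ± 0.22), and Robo4 (-1.56 ± 0.56) were higher in MPP4. The call for Jam3 (1.18 ± 0.35) came from PBS 3, and without it the direction turned (-0.66, not called).

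The comparison was repeated with equal numbers of cells of both classes from each library and cluster, an alternative chosen after seeing the data. There 83 genes were higher in MPP3 and 56 were higher in MPP4, and all 139 were among the calls above. The direction of Mpo (2.11), Ctsg (3.31), Prtn3 (1.10), Flt3 (-1.15) and Dntt (-1.35) was unchanged there. Classes were also rebuilt from markers fixed here on 50% of each cell's UMIs, with the remaining UMIs tested, so that the UMIs tested had not set the class; Mpo, Ctsg, Dntt and Flt3 are among those markers, so their own direction there was fixed by that choice. The rebuilt class was that of the authors in 48.9% of MPP3 and 54.1% of MPP4 cells. Then 1100 genes were higher in MPP3 and 780 higher in MPP4, Mpo differed by 1.89, Ctsg by 3.45, Dntt by -3.16 and Flt3 by -1.14, while Irf8 turned to -0.47 (called). Over the 21 alternatives run on the PBS libraries, 21 genes were higher in MPP3 and 25 were higher in MPP4 in each, the former led by Ctsg, Cpa3, Mt1, Mpo and Rab44 and the latter by Ddx4, Sema3d, Dntt, Gm32554 and Arpp21.

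**Figure D5:**
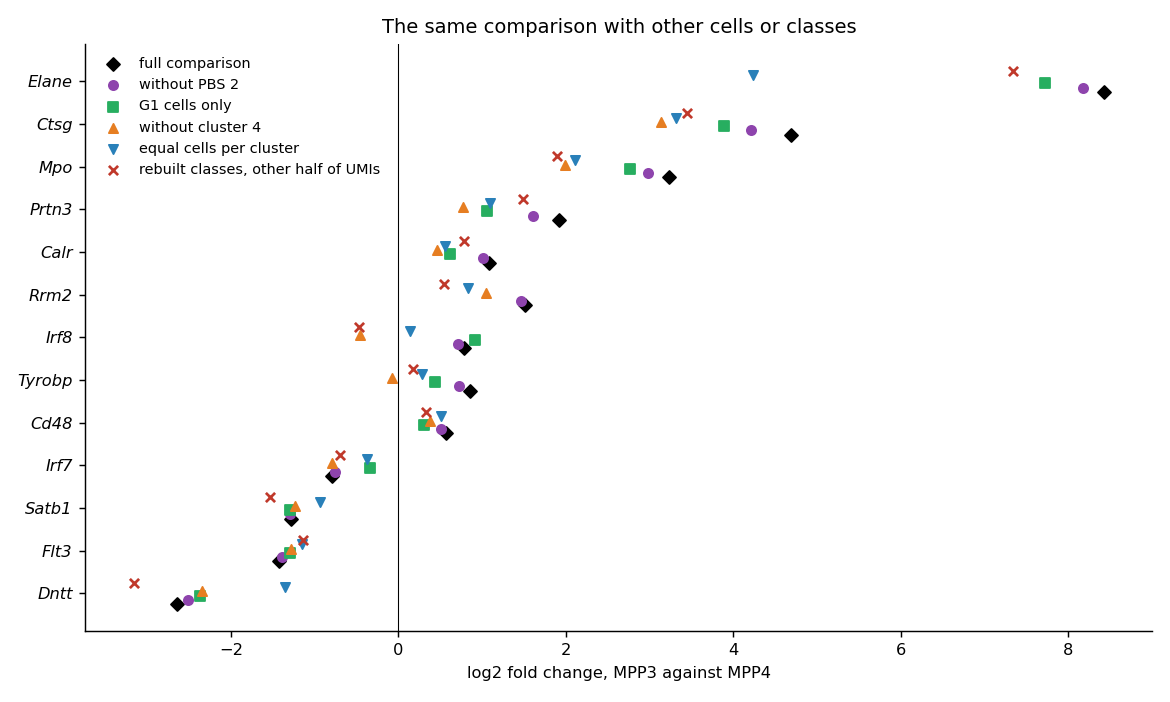
Log2 fold change of MPP3 against MPP4 for 13 genes in the full comparison (black diamonds) and in 5 alternatives that change the libraries, cells or classes, one point a setting; Elane was under the filter without cluster 4. The signs of Mpo, Ctsg, Flt3 and Dntt are the same in each, and those of Irf8 and Tyrobp turn without cluster 4.

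Whether the MPP3 to MPP4 difference was another one in leukemic mice was tested with AML replicates 1 and 3 (217 and 783 MPP3 cells, 117 and 1479 MPP4 cells), since AML replicate 2 has no cells in the authors' table. Of 11999 genes, 33 were called (0.275%), 16 with a positive and 17 with a negative difference of AML minus PBS, and 777 had an unadjusted p under 0.05. A negative difference can also belong to a gene higher in MPP4 whose classes lay further apart in AML. Myl10 is such a gene (-1.11 in PBS and -2.03 in AML). With library totals in place of TMM 45 were called, 7 with a positive and 38 with a negative difference. In the AML libraries Elane was at 400 and 622 CPM in MPP3 and 20.6 and 5.41 CPM in MPP4, a log2 fold change of 6.56 against 8.41 in PBS in the same fit. Its MPP4 sums held 8 and 48 UMIs in AML and 23, 4 and 20 in PBS, where MPP4 is read as background, so both values rest on a low level that is poorly known. The count fell to 5 without PBS 1, to 8 without PBS 3 and to 8 in G1 cells, it was 41 without AML 3, of which 6 were among the 33, and limma-voom called 1 gene. Without cluster 4 the difference for Elane turned to 0.91 (edgeR adjusted p = 0.82).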

How the data were processed

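LSK cells of 3 PBS libraries, and of 2 AML libraries for a single comparison, were profiled with the 10x Chromium GEM V3 chemistry. Per the labels and the submitters' processing notes, reads were processed with Cell Ranger 7.0.1 and Seurat 4.3.0 in R 4.2.2 against mm10 (GRCm38). The authors deposited UMI counts per gene and barcode, and a table of the cells they kept with cluster, cell-cycle phase, class, module scores and percent of mitochondrial UMIs. The module scores, which set the class, are scores computed by the authors from the same counts, and the percent of mitochondrial UMIs is as deposited. The 11 other columns of that table were not used. Doublets were not called here; how they were treated upstream is not stated in the sources read.

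UMI counts were summed per library and class, normalised with TMM after filterByExpr, and tested with edgeR 4.0.16 (quasi-likelihood, library and class as terms, Benjamini-Hochberg adjusted p under 0.05). CPM are relative to the TMM-scaled library size, a positive log2 fold change is higher in MPP3, and the SE is derived from the F statistic. The classes of a library share animals and droplets, so the library was the block. There were 2 residual degrees of freedom, and the spread was shrunk close to a common value (biological coefficient of variation 5.58%), so genes whose libraries disagree can be called. The AML comparison tested the difference of the class differences with libraries as terms. Scripts were tested on simulated data. Alternatives used DESeq2 1.42.0, limma 3.58.1, other scalings, filters, cells and classes; equal cells per cluster, robust spread and the removal of cells with mast cell or basophil UMIs were added after seeing the data. Confidence intervals are exact at 95% and cover counting error only.

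The members and lists were chosen with earlier results of these data known. Named genes were Flt3, Cd48, Slamf1, Kit, Ly6a, Cd34, Mpo, Elane, Dntt and Il7r, the 10 largest rises and falls (mean of at least 5 log2 CPM, 3 libraries on 1 side), up to 4 called members of each list with the largest change (up to 3 uncalled ones where under 3 were called), and the 5 genes of lowest p for the AML difference. Lyz2, Cebpa, Spi1, Irf8, Tyrobp, Cd74, Ly86, Csf1r, Csf3r, Mgst2, Ctss, Ldhb, Cxcr4, Cd52, Mef2c, Ikzf1, Ebf1, Ighm, S100a9, Retnlg and the genes named as called in each alternative were chosen after their values were seen.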

Additional observations from a re-analysis of the deposited data

Results flagged for a closer look

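The difference between MPP3 and MPP4 was compared between AML and PBS libraries by a test of the difference itself, and 33 genes passed it. The 5 with the lowest p are given here, each with edgeR's adjusted p. Slpi, a protease inhibitor, differed more between the classes in AML (log2 fold change 3.42) than in PBS (2.10), a difference of 1.32 ± 0.22 (SE; adjusted p = 0.000105). It was at 76.7 and 312 CPM in MPP3 of AML 1 and AML 3 and at 2.57 and 29.7 CPM in MPP4. The basophil protease gene Mcpt8 differed less in AML (3.43 against 5.83; difference -2.41 ± 0.44; adjusted p = 0.000807). It rested on few cells: 5 cells held 68.6% of its MPP3 UMIs in PBS, and cells with at least 3 UMIs over the mast cell and basophil markers numbered 8 of 25 in MPP3 of PBS 2 and 0 of 217 in AML 1. Without cluster 4 the Mcpt8 difference was -0.16 and not called. Elane differed less in AML as well (6.56 against 8.41; difference -1.85 ± 0.36; adjusted p = 0.00223), on MPP4 sums of 8 and 48 UMIs in AML and 23, 4 and 20 in PBS, and without cluster 4 its difference turned to 0.91 (adjusted p = 0.82). S100a8 gave a difference of -6.48 ± 1.28 (adjusted p = 0.00255) on few UMIs, with 0 and 2 in MPP3 and 0 and 7 in MPP4 of AML 1 and AML 3. Herc6, an interferon-stimulated ubiquitin ligase, was higher in MPP4 in AML (-1.23) and level in PBS (-0.12), a difference of -1.11 ± 0.22 (adjusted p = 0.00255). Without AML 3 the AML arm is 1 library, assumed to vary like the PBS libraries. Slpi, S100a8 and Herc6 then lost their calls with differences of 2.81, -5.23 and -1.08 (adjusted p 0.35, 1 and 0.62). Of these 5 genes limma-voom called S100a8 alone. AML 1 held few cells, 217 MPP3 and 117 MPP4, and the causes of these differences were not tested.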

How the results depend on the processing

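The counts of genes higher in MPP3 and in MPP4 (1437 and 936) moved to 655 and 258 with DESeq2, 194 and 184 in G1 cells, 592 and 474 with equal cells per phase, 569 and 537 in clusters 0 to 2, 615 and 592 without cluster 4, 470 and 327 with cells thinned to 2000 UMIs, 955 and 776 without the top 5% of cells by UMIs, and 83 and 56 with equal cells per cluster. Fewer cells, or with thinning fewer UMIs a cell, entered the last 7 of these, and other causes were not tested. Leaving out each PBS library in turn gave 528 to 1425 and 359 to 1034 calls, the lowest without PBS 3. Without the replicate block 115 and 90 genes were called. The genes called in the AML comparison (33) numbered 1 with limma-voom, 8 in G1 cells and 21 without cluster 4. With library totals they numbered 45, 7 with a positive and 38 with a negative difference of AML minus PBS. They numbered 5 to 60 when each library was left out. Of the 41 without AML 3, 6 were among the 33. AML and PBS libraries share numbers only, so no pairing was made across them.

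Directions turned as follows (log2 fold change). Without cluster 4: Slpi -0.010, Cebpd -0.020, Irf8 -0.45, Ly86 -0.93, Tyrobp -0.077, Cd74 -1.01, Cxcr4 -0.24, and the AML difference of Elane 0.91. In clusters 0 to 2: Cebpd -0.030, Irf8 -0.47, Ly86 -1.01, Tyrobp -0.096, Cd74 -0.98, Cxcr4 -0.18. With rebuilt classes: Id2 -1.16, Ccne1 -0.042, Pdia4 -0.076, Irf8 -0.47, Ly86 -0.018, Cd74 -1.18, Cxcr4 -0.093. With equal cells per cluster Cd74 was -1.19, with equal cells per phase Cxcr4 -0.090, in G1 cells Spi1 -0.011, and without cells of mast cell and basophil markers Hba-a1 -0.31. With clusters 6 to 8 included, Ly6a was 0.81, Blnk 0.098, Mzb1 6.80, Jchain 9.33, Ighm 6.38, Igkc 10.4, Cd79b 0.56, Trbc2 1.02, Cd52 1.06, Ctss 1.72 and Klrd1 0.00025. When each PBS library was left out, Hbb-bs ranged from -0.30 to 4.19 and Jam3 from -0.66 to 1.64. The 25 MPP3 cells of PBS 2 limit the depth of that library.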

Other observations

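The 8 gene families given here were chosen after their values were seen. Of 37 NADH dehydrogenase subunits (Nduf) 26 were higher in MPP3 and none in MPP4 (median log2 fold change 0.29), of 17 ATP synthase subunits (Atp5) 14 were (0.36), of 38 proteasome subunits (Psm) 26 were (0.28) and of 78 mitochondrial ribosomal proteins (Mrpl, Mrps) 45 were (0.28), where 13% of all genes were called in that direction. In G1 cells, where 1.98% of all genes were called higher in MPP3, 2, 1, 1 and 1 of them were called (medians 0.12, 0.11, 0.12 and 0.099). With equal cells per cluster, where 0.944% were, 1, 0, 0 and 1 were called, and the medians were 0.19, 0.24, 0.22 and 0.19. Of 8 chaperonin subunits (Cct) 5 were higher in MPP3 (0.25) and of 18 cytosolic tRNA synthetases 4 were (0.21), and none in G1 cells. Cytosolic ribosomal proteins had 18 of 79 higher in MPP3 (median 0.081), but 0 in G1 cells (-0.015), 2 without cluster 4 (-0.016) and 1 with cells thinned to 2000 UMIs (-0.048). With thinning 5.60% of all genes were higher in MPP3. With library totals in place of TMM 17 were higher in MPP3 and 11 in MPP4, where 9.0% and 12.7% of all genes were. Of 7 GTPases of the Gimap family, which are known from lymphocytes, 5 were higher in MPP4 (-0.72), where 8.49% of all genes were called in that direction, against 1 of 7 in G1 cells (median -0.29; 1.88% of all genes) and 0 of 6 with equal cells per cluster (-0.43; 0.637%).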
